A study of Drosophila melanogaster with 9 samples.

Results

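The hemocyte identity genes are 10 genes that mark or specify Drosophila blood cells, here the transcription regulators srp, ush, gcm and lz, the blood cell markers and surface receptors Hml, Pxn, NimC1 and eater, and the collagen IV genes Col4a1 and vkg. Their members were the accessible regions (peaks) of an ATAC-Seq count table that overlapped the body of one of these genes or the 2000 bp upstream of it in the dm6 annotation, which gave 51 of 17175 peaks. A peak was present at 8 of the 10 genes, and at 7 of them a peak lay within 500 bp of a transcription start site (TSS) of the gene itself. No peak overlapped gcm or NimC1 or their upstream 2000 bp.

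S2R+ cells, a single Drosophila melanogaster line of embryonic origin with features of blood cells, had been grown for 36 h at 25 °C and then for 24 h at 14, 25 or 29 °C, with 3 replicate cultures at each temperature and no other treatment. ATAC-Seq, in which a transposase cuts and tags open DNA, was carried out at 25 °C for every culture, whatever its growth temperature. The comparisons address which regions open or close between a cool and a warm temperature that the cells tolerate. The number of cells plated for the 14 °C cultures is described differently in the sources used here (equal or higher than for the others), and cell density and temperature cannot be told apart.

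Hemocytes are the blood cells of the fly. The GATA factor Serpent (srp) is required for their formation, and U-shaped (ush), a zinc finger protein of the FOG family, binds GATA factors and modulates them, whereas the Runx factor Lozenge (lz) directs crystal cells and Glial cells missing (gcm) acts in glia and in early plasmatocytes. Plasmatocytes, the phagocytes, carry receptors such as NimC1 and Eater and secrete Hemolectin (Hml), a clotting protein, Peroxidasin (Pxn), a matrix enzyme, and the collagen IV chains Col4a1 and Viking (vkg) of basement membranes.

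The sequences of 6 member regions are shown for description. For the srp, eater, Col4a1 and vkg start site peaks this is the part upstream of the TSS, up to the 300 bases next to it. For 2 intron peaks it is the central 300 bases, in ush (the intron peak with the most GATA matches) and in Pxn (the tallest intron peak). They were read from the dm6 assembly (RefSeq, Release 6) on the strand of the gene and run 5′ to 3′. Capitals mark GATA matches (TGATAA or TGATAG or AGATAA or AGATAG, on either strand) and Runt matches (AACCACA or AACCGCA, on either strand).
srp start site peak, upstream part, chr3R:15993972-15994139, plus strand: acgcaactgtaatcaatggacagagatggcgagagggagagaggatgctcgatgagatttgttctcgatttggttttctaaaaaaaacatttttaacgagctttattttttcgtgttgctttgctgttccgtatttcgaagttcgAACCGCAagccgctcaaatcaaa
ush intron peak, centre, chr2L:484651-484950, plus strand: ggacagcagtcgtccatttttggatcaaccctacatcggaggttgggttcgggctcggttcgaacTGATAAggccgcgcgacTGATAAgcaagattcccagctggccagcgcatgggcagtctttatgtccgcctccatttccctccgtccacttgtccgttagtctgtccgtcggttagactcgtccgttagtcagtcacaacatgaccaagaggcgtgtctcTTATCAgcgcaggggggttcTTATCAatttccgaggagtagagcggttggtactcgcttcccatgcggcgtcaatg
Pxn intron peak, centre, chr3L:2612990-2613289, minus strand: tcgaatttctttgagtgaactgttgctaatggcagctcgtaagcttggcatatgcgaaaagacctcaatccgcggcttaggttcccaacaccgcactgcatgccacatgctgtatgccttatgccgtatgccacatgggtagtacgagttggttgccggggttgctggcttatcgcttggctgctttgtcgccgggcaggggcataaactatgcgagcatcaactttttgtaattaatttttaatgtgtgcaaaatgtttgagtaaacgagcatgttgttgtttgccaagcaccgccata
eater start site peak, upstream part, chr3R:27099680-27099979, minus strand: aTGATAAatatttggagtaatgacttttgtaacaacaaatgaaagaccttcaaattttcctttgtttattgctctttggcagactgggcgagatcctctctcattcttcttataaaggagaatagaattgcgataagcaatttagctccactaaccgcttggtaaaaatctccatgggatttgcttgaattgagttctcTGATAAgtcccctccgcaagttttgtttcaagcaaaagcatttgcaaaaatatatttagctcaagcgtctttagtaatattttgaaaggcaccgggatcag
Col4a1 start site peak, upstream part, chr2L:5029309-5029608, plus strand: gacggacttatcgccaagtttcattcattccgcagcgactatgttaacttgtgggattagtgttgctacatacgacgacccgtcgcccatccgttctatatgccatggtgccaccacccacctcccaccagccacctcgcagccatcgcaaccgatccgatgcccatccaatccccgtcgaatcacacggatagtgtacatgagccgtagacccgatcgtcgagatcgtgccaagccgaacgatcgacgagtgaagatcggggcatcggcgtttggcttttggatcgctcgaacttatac
vkg start site peak, upstream part, chr2L:5027446-5027745, minus strand: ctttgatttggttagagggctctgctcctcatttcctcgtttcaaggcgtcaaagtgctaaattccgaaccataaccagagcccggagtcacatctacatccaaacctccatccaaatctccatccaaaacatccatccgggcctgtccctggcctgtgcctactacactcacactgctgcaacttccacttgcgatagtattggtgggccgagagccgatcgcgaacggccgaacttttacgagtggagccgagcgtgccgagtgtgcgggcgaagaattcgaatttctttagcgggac

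The ush window held 4 GATA matches and the eater window 2, the srp window held 1 Runt match, and the Pxn, Col4a1 and vkg windows held none of the motifs, although the full Pxn intron peak of 500 bp held 3 GATA matches. Of the central 300 bases of all 500-bp peaks, 43.7% held a GATA match and 8.78% a Runt match. Over the full 500 bp, 37 of 50 member peaks of that width held a GATA match (74.0%) compared to 60.5% of all such peaks, and the share was 87.0% among ush peaks (20 of 23) and 40.0% among srp peaks (4 of 10). The most matches, 5 each, lay in an ush intron peak (chromosome 2L, 484550 to 485050), an ush peak at the start of lncRNA:CR46258 (491369 to 491869) and the inner start site peak of Pxn (chromosome 3L, 2629194 to 2629694), while both peaks shared by Col4a1 and vkg held none. A Runt match was present in 10 of 50 member peaks compared to 13.6% of all peaks, and 5 of these 10 were srp peaks. The letters ATGCGGG, the core of the Gcm motif, were present on either strand in 4 of 50 member peaks compared to 3.34% of all peaks. These matches describe the letters only.

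Libraries held between 3290670 and 10805366 counts in peaks. Levels are given as CPM, the read count of a peak scaled to library size, with TMM factors that correct for differences in library composition. Among markers of cell types, 8 of 11 hemocyte markers had a peak at a TSS (none at Hml, NimC1 and He). So had 3 of 4 crystal cell markers, 3 of 5 of lamellocytes and 1 of 2 of glia and early blood cells. For other tissues the counts were 3 of 4 muscle, 2 of 3 epithelial, 1 of 2 ovarian follicle cell, 1 of 4 neuronal and 1 of 1 glial markers. No fat body marker (of 3) and no germ line marker (of 3, 1 of them not in the annotation) had such a peak. A peak at a TSS was thus not restricted to blood cell markers. Replicate 2 at 14 °C stood apart from the other libraries at that temperature, and it was also the deepest of them (10459192 counts compared to 3606693 and 6596744). The SD of log2 CPM over all peaks, a measure of how far tall peaks rise above low ones, was 1.06 in replicate 2 at 14 °C. It was 0.738 and 0.768 in replicates 1 and 3 at 14 °C. At 25 °C it was 1.14 in replicate 3 and 0.888 and 0.942 in replicates 1 and 2. At 29 °C it was 1.31 in replicate 2, the deepest library, and 1.01 and 1.04 in replicates 1 and 3.

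The member peaks were tall. Their median height percentile (rank of the mean CPM over the 9 libraries among all peaks, 100 being tallest) was 88.7, with 23 of 51 above the 90th percentile and 18 of these 23 at ush. By position, 18 of the 51 lay at the TSS of some gene, 27 in introns, 2 in coding exons, 1 in a 5′ UTR, 1 in a 3′ UTR and 2 between genes. One of the 51 was wider than 500 bp, so that levels of the other 50 are comparable per length.

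Between 14 and 29 °C, the promoter region of the collagen IV genes was less accessible at 14 °C, whereas no other member peak passed the test. The 2 called peaks (edgeR quasi-likelihood test, adjusted p under 0.05) were both lower at 14 °C (2 of 51, compared to 0.664% of all peaks), and none of the 51 was called higher at 14 °C (compared to 0.559% of all peaks). At an unadjusted p under 0.05, 20 of 51 were found, 19 of them lower at 14 °C, which is 39.2% compared to 33.3% of all peaks. Without overlap of the libraries, 20 members were lower at 14 °C (15.1% of all peaks) and 2 were higher (12.8% of all peaks). The median log2 fold change of the members was -0.45 (range -1.73 to 0.69), while it was 0.015 over all peaks.

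**Figure D1:**
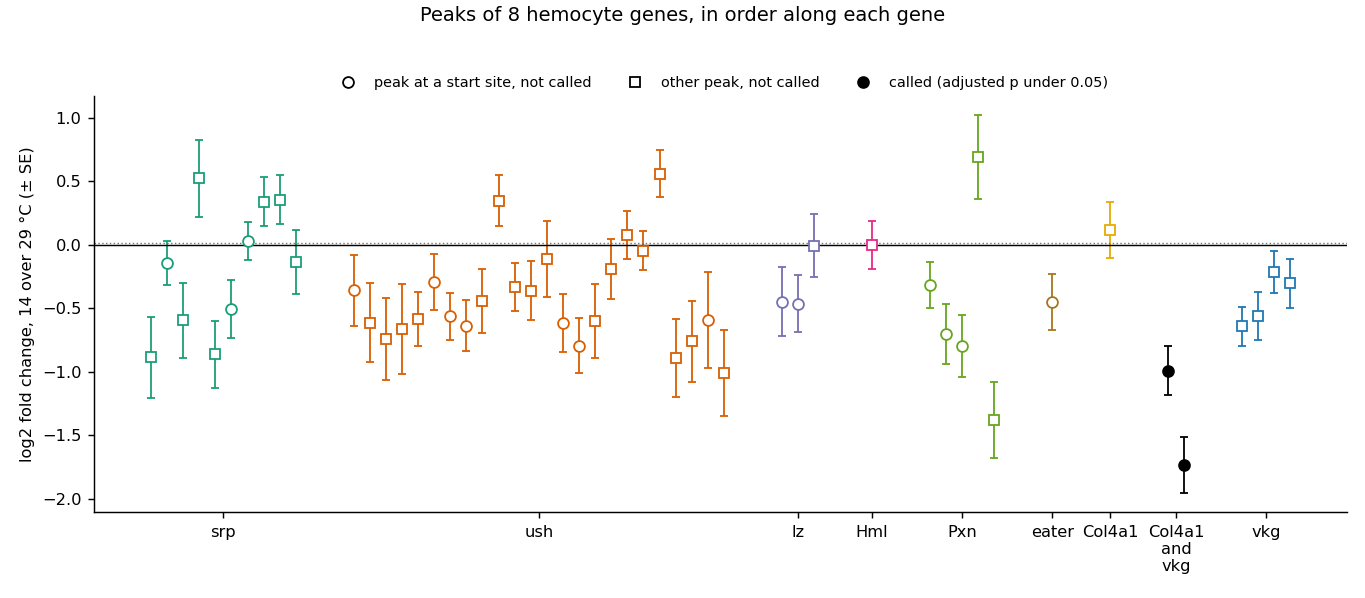
Log2 fold change of accessibility, 14 over 29 °C, with its SE (vertical axis), for the 51 peaks in order along each gene (horizontal axis); filled symbols are called, circles lie at a start site, and the dotted line is the median of all peaks (0.015). Of the 51 points 41 lie below 0, and the filled ones are the pair of peaks shared by Col4a1 and vkg (-0.99 and -1.73).

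The height of a peak went along with this shift. Across all 17175 peaks the log2 fold change fell with height (Pearson's r = -0.52 across peaks, which are not independent), and across the 51 members r was -0.47. Above the 90th percentile the median was -0.61 for the 23 members and -0.55 for all peaks of that class. With offsets per library that follow peak height, the median of the members was -0.088. Of the 51, 31 were below and 20 above 0, and 5 were called (4.9% of all peaks were called with these offsets), 4 lower (2.86% of all peaks) and 1 higher at 14 °C (2.04% of all peaks). The higher one was an ush intron peak (chromosome 2L, 498813 to 499313, log2 fold change 0.54, adjusted p = 0.00602), named here because of this call. Its direction was the opposite in the main fit (-0.11, adjusted p = 0.785) and without replicate 2 at 14 °C (-0.46). Among the lower ones were both collagen IV peaks, which lay -1.33 and -0.98 (log2) from the median of all peaks of like height (the same 1 of 10 classes of height percentile).

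**Figure D2:**
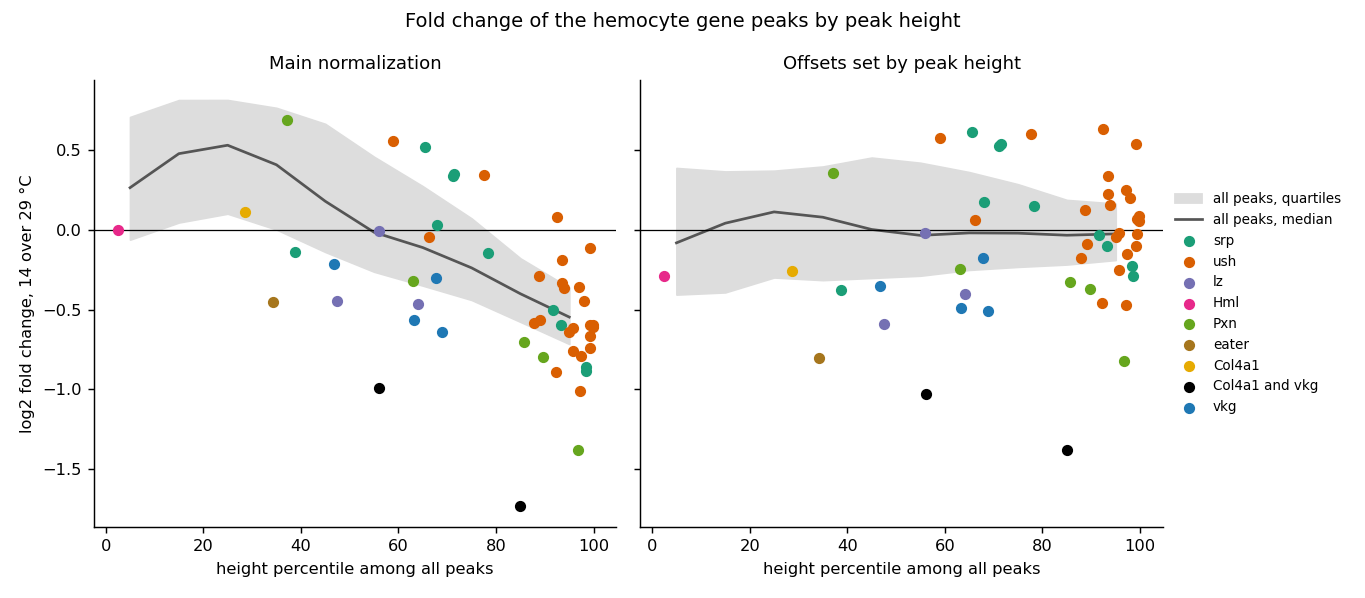
Log2 fold change, 14 over 29 °C (vertical axis), against height percentile (horizontal axis) for the 51 member peaks, with the median (line) and quartiles (band) of all peaks in 10 classes of height; left with the main normalization, right with offsets set by height. The median of the highest class is -0.55 on the left and -0.025 on the right, and the pair shared by Col4a1 and vkg lies far below the band in both panels.

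For srp (FBgn0003507, chromosome 3R, 15986152 to 16004085, plus strand), 10 peaks were present, 3 of them at an own TSS. Along the gene they ranged from height percentile 38.8 to 98.5. The tallest start site peak (15993972 to 15994472) had 76.0, 120.1 and 86.6 CPM at 14 °C. The levels were 125.8, 108.5 and 146.6 CPM at 25 °C and 125.5, 145.3 and 130.3 CPM at 29 °C. Its 14 °C libraries were all below those at 29 °C, but the difference did not pass the test (log2 fold change -0.50 ± 0.23 SE, adjusted p = 0.15), and with height offsets it was -0.033.

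The tallest srp peak, upstream of the gene, had its centre at -1492 bp from the first TSS (15984410 to 15984910) and held 4 GATA matches. It had 129.2, 269.9 and 138.3 CPM at 14 °C. This compares to 224.1, 243.8 and 332.8 CPM at 25 °C and 297.3, 385.6 and 311.8 CPM at 29 °C. The 14 °C libraries did not overlap those at 29 °C, and replicate 2 at 14 °C reached into the range at 25 °C. The log2 fold change was the lowest of srp, -0.89 ± 0.32 (SE, adjusted p = 0.122). A peak in the first intron (15988050 to 15988550, 2 Runt matches) had the highest, 0.52 ± 0.30 (SE, adjusted p = 0.218), with 87.6, 37.1 and 65.9 CPM at 14 °C and 54.6, 50.9 and 36.0 CPM at 25 °C. At 29 °C it had 46.7, 33.5 and 52.5 CPM. Its groups overlapped. None of the 10 peaks of srp was called in any comparison with the main fit. For 14 against 29 °C, 3 reached an unadjusted p under 0.05 (33.3% of all peaks did), all lower at 14 °C. DESeq2 called 2 of the 10 lower at 14 than at 29 °C (5.92% of all peaks). In the fit blocked by replicate number on the 6 libraries of these temperatures, 7 were called (58.6% of all peaks). Of these 7, 4 were lower at 14 °C (25.1% of all peaks).

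**Figure D3:**
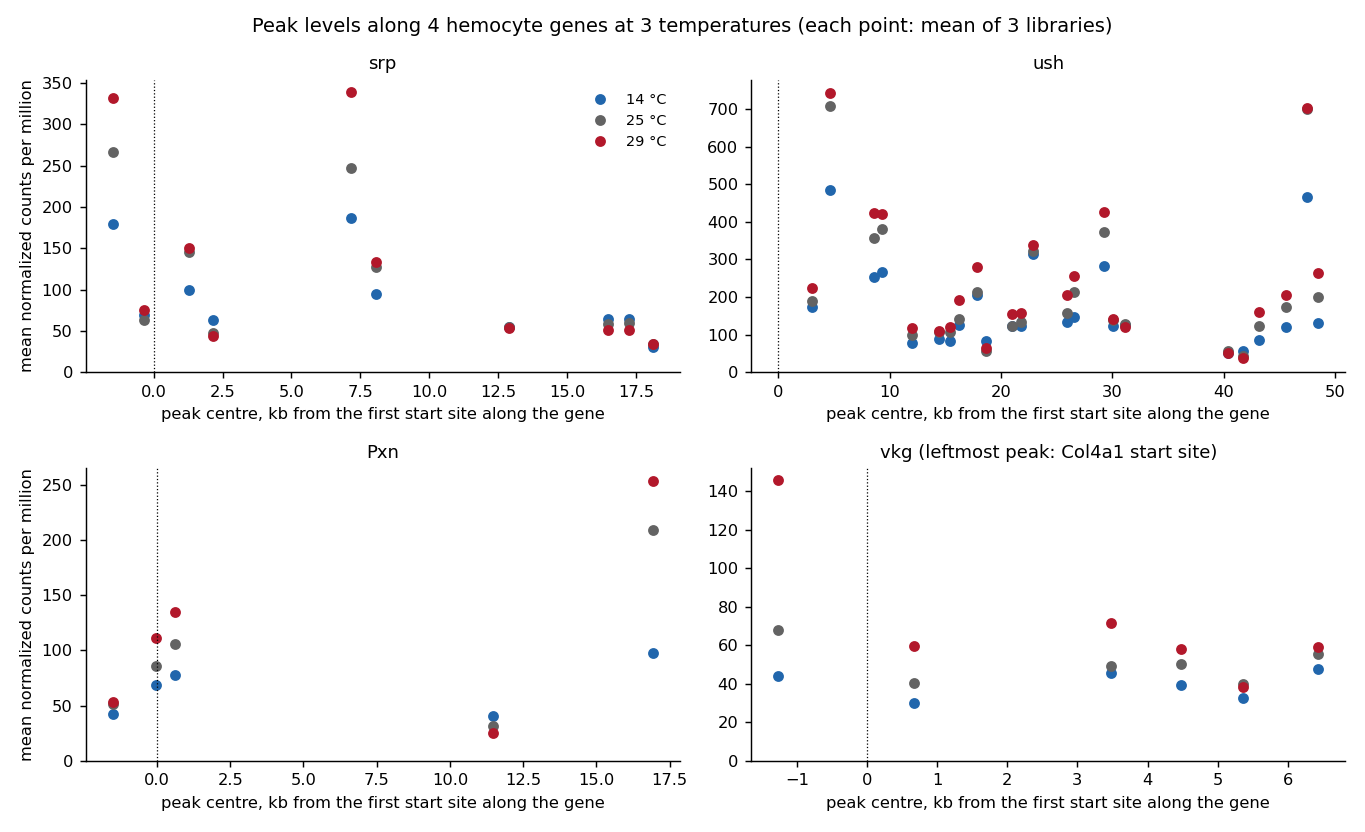
Mean CPM of 3 libraries at 14, 25 and 29 °C (vertical axis, from 0) against the position of the peak centre in kb from the first start site (horizontal axis) for srp, ush, Pxn and vkg. The mean at 14 °C is the lowest of the 3 at 22 of the 23 peaks above the 90th height percentile, all of srp, ush and Pxn (the exception is an ush peak), and at each of the 6 peaks of vkg. Of all peaks above that percentile, 89.5% had a log2 fold change below 0 between 14 and 29 °C and 88.3% between 14 and 25 °C.

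The ush gene (FBgn0003963, chromosome 2L, 476220 to 540560, plus strand) had 24 peaks over 64.3 kb, with a median height percentile of 95.3 and none below 59.0. At its first TSS no peak was present, while 2 peaks lay at inner start sites, and others at the starts of cbt and of the noncoding RNA genes lncRNA:CR46258 and lncRNA:CR46259, which lie within ush. Its 2 tallest peaks were both above the 99th percentile. The inner start site peak (523435 to 523935) had 271.8, 759.5 and 365.9 CPM at 14 °C. The levels were 617.8, 656.3 and 827.8 CPM at 25 °C and 577.4, 903.8 and 628.1 CPM at 29 °C. The groups overlapped because replicate 2 at 14 °C had more than 2 times the level of either other replicate, and the log2 fold change of -0.59 ± 0.38 (SE, adjusted p = 0.254) turned to 0.056 with height offsets. The tallest member of all was an ush intron peak (480670 to 481170) with a mean of 486 ± 200.4 CPM (SD, n = 3) at 14 °C, 709 ± 93.2 at 25 °C and 743 ± 116 at 29 °C.

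Within ush the fold changes ranged from -1.01 to 0.56, with 21 of 24 below 0 (87.5%) and none called in the main fit. Of all peaks above the 90th height percentile, 89.5% were below 0. DESeq2 called 8, all lower at 14 °C (5.92% of all peaks were called lower by it). The blocked fit of 6 libraries called 15 (58.6% of all peaks), 13 of them lower at 14 °C (25.1% of all peaks). The lowest belonged to an intron peak with 3 GATA matches that follows the inner start site (524464 to 524964), with 88.1, 199.6 and 103.7 CPM at 14 °C. This compares to 161.3, 199.8 and 241.6 CPM at 25 °C and 235.6, 335.1 and 218.1 CPM at 29 °C. The 14 and 29 °C libraries did not overlap there (log2 fold change -1.01 ± 0.34 SE, adjusted p = 0.116), and with height offsets the peak was called (log2 fold change -0.47, adjusted p = 0.0337). The highest was an intron peak (517690 to 518190) with 45.5, 71.5 and 52.8 CPM at 14 °C and 40.7, 45.2 and 40.3 CPM at 25 °C. At 29 °C it had 40.0, 41.5 and 33.7 CPM. All libraries at 14 °C were above those at the other temperatures (0.56 ± 0.18 SE, adjusted p = 0.116), and the peak was called only with the filter on low counts (adjusted p = 0.0433) among the alternatives that kept all libraries and used no block. The intron peak shown above with 4 GATA matches had 167.8, 380.2 and 211.5 CPM at 14 °C. The levels were 314.8, 347.7 and 407.5 CPM at 25 °C and 387.3, 509.8 and 374.8 CPM at 29 °C, with overlap of the groups (adjusted p = 0.14).

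Around lz (FBgn0002576, chromosome X, 9284649 to 9303636, plus strand), the crystal cell factor, 3 peaks of moderate height were present (height percentiles 47.4 to 64.1), 1 of them at the start of the neighbouring gene c11.1. The peak upstream of the lz TSS (9283967 to 9284467) had 37.6, 59.6 and 35.3 CPM at 14 °C. This compares to 40.7, 40.1 and 53.7 CPM at 25 °C and 54.8, 58.5 and 71.4 CPM at 29 °C. Replicate 2 at 14 °C lay among the 29 °C libraries, and the log2 fold change was -0.46 ± 0.22 (SE, adjusted p = 0.164). In the intron peak (9291160 to 9291660) the means were 42.1 ± 13.2 CPM (SD, n = 3) at 14 °C, 45.6 ± 4.91 at 25 °C and 42.2 ± 11.5 at 29 °C, with a log2 fold change of -0.0065 ± 0.25 (SE) between 14 and 29 °C.

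Of the blood cell markers, Pxn (FBgn0011828, chromosome 3L, 2601455 to 2630064, minus strand) had 5 peaks, of which 2 lay at its own start sites and 1 at the start of MEP-1. The inner start site peak (2629194 to 2629694) had 62.9, 99.6 and 69.9 CPM at 14 °C and 83.5, 107.5 and 126.5 CPM at 25 °C. At 29 °C it had 136.9, 149.8 and 117.4 CPM. All 14 °C libraries were below all 29 °C libraries. The log2 fold change was -0.80 ± 0.24 (SE, adjusted p = 0.105).

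The intron peak of Pxn shown above (2612889 to 2613389) was its tallest and had the lowest fold change outside the collagen IV genes. It had 72.0, 134.4 and 85.9 CPM at 14 °C. The levels were 196.6, 200.9 and 229.7 CPM at 25 °C and 236.7, 331.9 and 192.3 CPM at 29 °C. The 14 °C libraries were below all others, while those at 25 and 29 °C overlapped. Between 14 and 29 °C the log2 fold change was -1.38 ± 0.30 (SE) with an adjusted p of 0.0519 in the main fit. It passed the threshold in the fit blocked by replicate number (log2 fold change -1.39, adjusted p = 0.034) and with height offsets (log2 fold change -0.82, adjusted p = 0.00308). Between 14 and 25 °C it was -1.10 ± 0.30 (SE, adjusted p = 0.647) and -0.73 with height offsets (adjusted p = 0.0246). A low intron peak of Pxn (2618334 to 2618834) had the highest fold change of all members, 0.69 ± 0.33 (SE, adjusted p = 0.164), with 47.5, 25.7 and 47.6 CPM at 14 °C. This compares to 40.9, 29.2 and 23.4 CPM at 25 °C and 27.7, 16.0 and 31.8 CPM at 29 °C, and its groups overlapped.

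Accessibility at the other markers was low or absent. The phagocytosis receptor gene eater (FBgn0243514, chromosome 3R, 27095867 to 27099679, minus strand) had 1 peak, at its TSS (27099565 to 27100065, height percentile 34.2), with 28.7, 22.8 and 26.0 CPM at 14 °C and 30.5, 32.0 and 34.4 CPM at 25 °C. At 29 °C it had 39.2, 40.3 and 25.2 CPM. Replicate 3 at 29 °C fell among the 14 °C libraries, whereas those at 25 °C were above all at 14 °C, and between 14 and 29 °C the log2 fold change was -0.45 ± 0.22 (SE, adjusted p = 0.166). Hml (FBgn0029167, chromosome 3L, 13846054 to 13860001, plus strand) had no peak at its TSS, and its only peak (13859934 to 13860434), at the end of the gene, was among the lowest of all (height percentile 2.47). Its means were 17.8 ± 1.31 CPM (SD, n = 3) at 14 °C, 16.9 ± 2.82 at 25 °C and 17.8 ± 1.42 at 29 °C, and the libraries overlapped.

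Col4a1 (FBgn0000299, chromosome 2L, 5029609 to 5037279, plus strand) and vkg (FBgn0016075, chromosome 2L, 5012144 to 5028191, minus strand) are transcribed away from each other, and the region between and at their starts held both called members. At the Col4a1 start site (5029211 to 5029711) the levels were 43.6, 45.3 and 43.0 CPM at 14 °C. The levels were 65.3, 70.5 and 68.8 CPM at 25 °C and 119.6, 195.9 and 122.7 CPM at 29 °C. All 3 temperatures were separate, with the lowest levels at 14 °C and the highest at 29 °C, and the replicates were close together except for replicate 2 at 29 °C. The level at 29 °C was 3.33-fold that at 14 °C (log2 fold change, 14 over 29 °C, -1.73 ± 0.22 SE, adjusted p = 0.0118).

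At the inner vkg start site (5027272 to 5027772) the levels were 29.7, 26.6 and 34.2 CPM at 14 °C. This compares to 37.2, 42.2 and 41.7 CPM at 25 °C and 51.9, 75.8 and 51.0 CPM at 29 °C. Again the temperatures did not overlap, and the level at 29 °C was 1.99-fold that at 14 °C (log2 fold change -0.99 ± 0.19 SE, adjusted p = 0.0384). Both peaks were also lower at 14 than at 25 °C and higher at 29 than at 25 °C in all libraries, but these differences were not called (log2 fold change between 29 and 25 °C 1.10 ± 0.21 SE at Col4a1 and 0.57 ± 0.19 SE at vkg, adjusted p = 0.822 for both). With DESeq2, the Col4a1 peak was called between 29 and 25 °C (adjusted p = 0.00265). Without replicate 1 or replicate 3 at 14 °C, the Col4a1 peak had an adjusted p of 0.0501 and 0.0922, and the vkg peak lost its call without any of these libraries or any one of those at 29 °C (adjusted p from 0.0757 to 0.177), with little change in size.

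**Figure D4:**
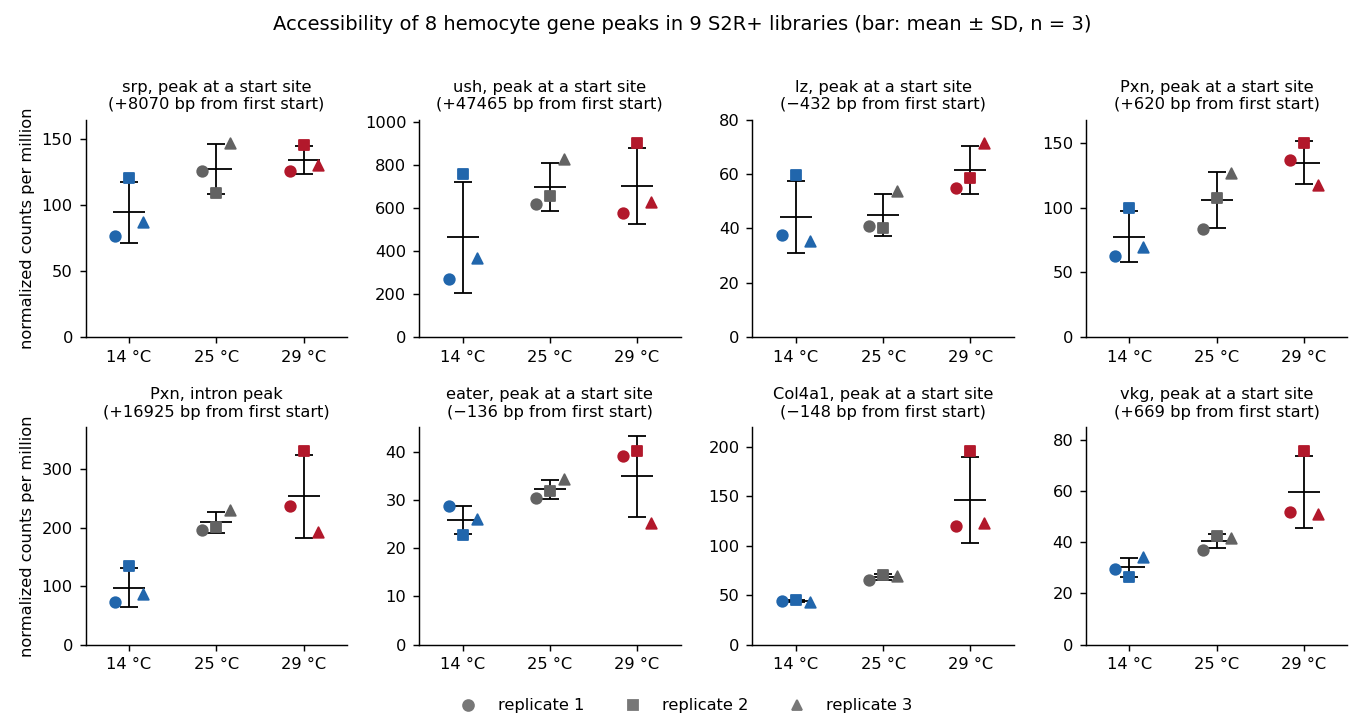
CPM in each of the 9 libraries (points, by replicate) with the mean and SD (n = 3) at 14, 25 and 29 °C, for the tallest start site peak of 7 genes and the tallest Pxn intron peak; each vertical axis starts at 0. The Col4a1 and vkg peaks rise from 14 to 29 °C without overlap of the temperatures, while replicate 2 at 14 °C (square) stands above the other 14 °C libraries at srp, ush, lz and Pxn.

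Away from these start sites the collagen IV genes changed less. The vkg intron peak nearest to them (5024466 to 5024966) had 43.8, 50.0 and 42.8 CPM at 14 °C and 49.7, 46.5 and 51.4 CPM at 25 °C. At 29 °C it had 63.4, 72.9 and 77.7 CPM. The 29 °C libraries were above all others, and the log2 fold change between 14 and 29 °C was -0.64 ± 0.15 (SE, adjusted p = 0.0642). All 6 vkg peaks had fold changes below 0, the smallest of which was -0.21 ± 0.17 (SE) in another intron peak (5022574 to 5023074). The first intron of Col4a1 held a low peak (5030456 to 5030956) with 31.4 ± 5.10 CPM (SD, n = 3) at 14 °C, 26.6 ± 2.46 at 25 °C and 29.1 ± 6.0 at 29 °C. Its log2 fold change of 0.12 ± 0.22 (SE) became -0.26 with height offsets.

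Compared to 25 °C, no member peak was called at either extreme. Between 14 and 25 °C, 0 of 51 members were called with edgeR (0.00582% of all peaks) and 1 with DESeq2 (the Pxn intron peak, 0.425% of all peaks), 6 had an unadjusted p under 0.05 (5.33% of all peaks), and the median log2 fold change was -0.22 (0.036 over all peaks), or -0.060 with height offsets. Between 29 and 25 °C, 0 of 51 were called with edgeR (0% of all peaks) and 1 with DESeq2 (the Col4a1 peak, 0.116% of all peaks), 4 had an unadjusted p under 0.05 (4.58% of all peaks), all higher at 29 °C (both collagen IV start site peaks, the vkg intron peak nearest to them and an ush peak at 492170 to 492670), and the median was 0.18 (-0.016 over all peaks), or 0.068 with height offsets. These comparisons share libraries with each other and with that of 14 and 29 °C. The mean at 25 °C lay between the other means in 42 of 51 members (82.4%) and in 73.4% of all peaks. The ush intron peak with the largest fold change above 0 between 14 and 25 °C (494658 to 495158) had 74.5, 86.9 and 84.5 CPM at 14 °C. The levels were 40.6, 63.4 and 66.5 CPM at 25 °C and 65.4, 60.8 and 67.7 CPM at 29 °C. All 14 °C libraries were above the others (0.53 ± 0.20 SE between 14 and 25 °C, adjusted p = 0.654).

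How many members were called depended on replicate 2 at 14 °C and on the test. This library was the highest of the 3 at 14 °C in 38 of 51 members and in 23 of 24 ush peaks. The share over all peaks was not counted. Tall peaks rose further above low ones in this library, and the members were tall (median height percentile 88.7, and 95.3 for ush). Whether the pattern is particular to the members was not tested. Without it, 33 members were called between 14 and 29 °C (49.7% of all peaks). Of these, 29 were lower at 14 °C (23.4% of all peaks were then called lower) and 4 higher (the rest of the 49.7% of all peaks). Without replicate 1 or without replicate 3 at 14 °C, 0 members were called (0.0582 and 0% of all peaks). DESeq2 called 16 of 51, all lower at 14 °C (5.92% of all peaks were called lower by it), and they included 8 ush, 2 srp and 3 Pxn peaks beside 3 at the collagen IV genes. A fit of only the 6 libraries of 14 and 29 °C, blocked by replicate number and added once the data had been seen, called 34 (58.6% of all peaks). Of these, 28 were lower at 14 °C (25.1% of all peaks) and 6 were higher (the rest of the 58.6% of all peaks). In bulk libraries, fewer cells with an open region and less opening per cell cannot be told apart.

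The start site peaks of other genes whose CPM moved most like that of a member over the 9 libraries were found for srp and Col4a1 among 7309 peaks at coding start sites. Those most like the srp peak were at CG10444, Smn and raw (Pearson's r of log2 CPM 0.986, 0.986 and 0.983, n = 9 libraries), and 968 of the 7309 peaks had an r over 0.9. Those most like the Col4a1 peak were at kay, Gip and IntS11 (0.976, 0.972 and 0.972), with an r over 0.9 for 88 peaks. These correlations describe libraries that share depth, peak height effects and temperature. Among other hemocyte genes, 32 of 38 had a peak within the same window, 113 peaks in all without the members, and 6 of the 113 were called between 14 and 29 °C (1.22% of all peaks were called), 4 higher and 2 lower at 14 °C. By list, 1 of 36 peaks of blood cell transcription factors, 3 of 17 of plasmatocyte surface genes, 0 of 28 of matrix and clotting genes, 0 of 5 of crystal cell genes and 2 of 27 of lamellocyte genes were called, and the median log2 fold changes were -0.31, -0.080, -0.27, 0.61 and -0.21. With height offsets these medians were -0.085, 0.056, -0.0037, 0.85 and -0.15.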

How the data were processed

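ATAC-Seq was analysed in 9 libraries of S2R+ cells, 3 replicates each at 14, 25 and 29 °C. The authors trimmed reads with Trimmomatic 0.38, mapped them to dm6 with Bowtie2, filtered them with SAMtools and Picard, used MACS2 to call peaks per library and counted reads in consensus peaks, centred on summits, with DiffBind. The deposited counts are raw, one whole number for each library at each peak. The deposited normalized table is a signal, the counts scaled by a size factor per library, and was used only to recover these factors. Filters that depend on reproducibility were not repeated and no peak was left out of the 17175.

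Counts were tested with edgeR 4.0.16 (R 4.3.3), using TMM scaling and a robust quasi-likelihood fit of all 9 libraries in which temperature was the factor, leaving 6 residual degrees of freedom. p-values were adjusted over every peak after Benjamini and Hochberg, and peaks with an adjusted p under 0.05 are named called. The SE was the log2 fold change divided by the square root of F. Depth was 3290670 to 10805366 counts per library. At the median mean count of 260.67, the counting error of 6.19% was below the biological coefficient of variation of 22.7%. The procedure was tested on simulated data.

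Gene positions and start sites came from Ensembl release 115 on dm6, and peak positions are as deposited (whether starts count from 0 or 1 is not stated). A peak at a TSS overlaps 500 bp on either side of one. Motif matches were counted in the peaks of 500 bp. Members and lists were chosen with earlier results of these data known. The 19 peaks named by rule were, per gene, the tallest start site peak (or the tallest peak) and the peaks with the largest and smallest fold change between 14 and 29 °C, every called peak, and the 3 smallest p-values in each comparison. Other peaks (the tallest ush intron peak and the ush intron peak with the most GATA matches) were named after their values were seen. Peaks most like a member were the 3 with the highest Pearson's r of log2 CPM (prior count 2).

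Alternatives were RLE, total count and the authors' scaling, loess offsets (span 0.3) per library against peak height or GC content, a filter on low counts (a mean count of at least 182, met by 12884 peaks), DESeq2 1.42.0, only the 6 libraries compared, the replicate number as a block (also with height offsets), each library left out in turn, and other gene windows. The block on only 6 libraries was added after seeing the data. Deviations of equally numbered libraries from their group means correlated across peaks between 14 and 29 °C (r = 0.634, 0.826 and 0.538 for numbers 1, 2 and 3). Libraries with the unequal numbers 1 and 3 correlated about as much (0.559 and 0.551). Pairs of number 2 with number 1 or 3 correlated negatively (r from -0.763 to -0.616). Number 2 thus went with number 2, but numbers 1 and 3 were not told apart. These values therefore do not show whether libraries were paired by number, and the main fit used no block. For 14 and 25 °C (0.671, -0.453 and -0.737) and for 29 and 25 °C (0.528, -0.488 and -0.601) the correlations of equally numbered libraries differed in sign. p-values measure the spread between these cultures of a single line.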

Additional observations from a re-analysis of the deposited data

How the results depend on the processing

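The call of the Col4a1 start site peak held in 14 of 17 alternatives (adjusted p from 5.01e-18 to 0.0922) and that of the vkg start site peak in 10 of 17 (1.70e-10 to 0.177), and neither changed direction in any of them. Of the 51 members, 5 were called between 14 and 29 °C with height offsets, 4 with offsets against GC content, 4 with the filter on low counts, 16 with DESeq2, 0 with only the 6 libraries compared, 3 with the replicate block, 6 with the replicate block and height offsets, 34 with the replicate block on 6 libraries, and 0 to 33 with 1 library left out. The shares of all peaks called were 4.9, 3.45, 3.47, 12.6, 0.0349, 2.79, 6.47 and 58.6% in the same order (0 to 49.7% with 1 library left out), compared to 1.22% in the main fit. Those called lower numbered 4, 4, 3, 16, 0, 3, 5 and 28 in the same order (0 to 29 with 1 library left out), and those called higher 1, 0, 1, 0, 0, 0, 1 and 6 (0 to 4). Of all peaks, 2.86% were called lower with height offsets, 5.92% with DESeq2 and 25.1% with the replicate block on 6 libraries. Without replicate 2 at 14 °C the share was 23.4%. The rest of the peaks called in each of these fits were higher at 14 °C. Between 14 and 25 °C 1 member was called with height offsets, 1 with DESeq2 and 1 with the replicate block and height offsets (0.477, 0.425 and 0.448% of all peaks), and between 29 and 25 °C 1 with DESeq2 (0.116%). The median log2 fold change of the members, -0.45 in the main fit, was -0.088 with height offsets and -0.098 with the replicate block and height offsets. Beside the Pxn intron peak, the replicate block changed no call in the main fit of all libraries. With height offsets the fold change of 14 of the 51 members turned sign (main values from -0.61 to 0.12), 11 of them ush peaks. The Col4a1 intron peak (0.12) was -0.26 with height offsets, -0.25 with block and height offsets, and from -0.018 to 0.27 with 1 library left out. The ush start site peak (-0.59) was 0.056 with height offsets, with or without the block. The Hml peak (main value 0.00011) was -0.29 with height offsets, -0.0072 with the block, -0.30 with both, and from -0.061 to 0.065 with 1 library left out. The lz intron peak (-0.0065) was 0.0045 with RLE scaling, 0.0049 with the authors' scaling, 0.0045 with DESeq2, 0.13 with total count scaling, 0.12 with the filter, and from -0.30 to 0.25 with 1 library left out. Other windows gave 46 to 54 members and the same 2 calls. The cause of these changes was not tested. Dispersion between replicates and not depth limited most peaks.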

Other observations

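Called peaks of other hemocyte genes (main fit) lay at 3 genes. Without replicate 3 at 14 °C, 0 of the 17175 peaks were called, so that none of these calls held. The number called was 10 without replicate 1 at 14 °C, 6 with only the 6 libraries compared, and 8542 without replicate 2 at 14 °C. Which of the peaks below were among them is not given here. In introns of drpr, which encodes the engulfment receptor Draper, 3 neighbouring peaks (chromosome 3L, 1725720 to 1726220, 1726748 to 1727248 and 1728194 to 1728694) were higher at 14 than at 29 °C, with means of 64.9 ± 6.90, 53.6 ± 5.08 and 54.2 ± 6.01 CPM (SD, n = 3) at 14 °C and 29.4 ± 8.37, 28.4 ± 2.94 and 31.6 ± 2.33 CPM at 29 °C (edgeR log2 fold changes 1.17 ± 0.20, 0.92 ± 0.17 and 0.79 ± 0.15 SE, adjusted p = 0.0336, 0.0383 and 0.0384). The start site peak of gcm2, a paralog and neighbour of gcm, had 34.8 ± 3.78 CPM (SD, n = 3) at 14 °C and 18.2 ± 1.11 CPM at 29 °C (edgeR log2 fold change 0.94 ± 0.20 SE, adjusted p = 0.0494), while gcm had no peak. This gcm2 peak was low (height percentile 16.1). A taller peak in the gcm2 window (9612659 to 9613526, height percentile 91.1) went the other way and was not called (edgeR log2 fold change -0.50 ± 0.26 SE, adjusted p = 0.182). In introns of msn, which encodes a kinase of the JNK pathway, 2 peaks (chromosome 3L, 2583061 to 2583561 and 2583885 to 2584385) were lower at 14 °C, with 38.6 ± 1.93 and 63.5 ± 6.46 CPM (SD, n = 3) compared to 65.1 ± 7.43 and 156 ± 33.9 CPM at 29 °C (edgeR log2 fold changes -0.76 ± 0.15 and -1.30 ± 0.22 SE, adjusted p = 0.0384 and 0.0333). The medians of all peaks in their height classes were -0.11 and -0.55.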
